A study of Mus musculus with 6 samples.

Results

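Mef2a, Mef2c and Mef2d encode transcription factors of skeletal muscle, and they were examined here as 3 genes of 23030 with a RefSeq transcript, chosen by name and placed on NCBI Build 37 (mm9) of the mouse genome. For each gene, reads of chromatin immunoprecipitation sequencing (ChIP-seq) were counted at the start site and over the body of the gene, and deposited Sox6 peaks were collected in the gene and within 20 kb of it. Mef2b, the other member of the family in the mouse, was not among the chosen genes and is given below with related genes.

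The libraries came from wild type C57BL/6 mice, from primary myoblasts of fetal limb muscle (E18.5) at passage 17 that were differentiated into myotubes for 48 hours in DMEM with 2% horse serum. No mutant and no second time point entered, so every comparison is of a ChIP library with input DNA of the same cells. A Sox6 antibody gave 2 libraries, an antibody against RNA polymerase II (Pol II) gave 2, and input DNA without antibody gave 2. Sox6 is an SRY-related repressor that holds slow fiber genes down in fetal muscle, and the study describes its Pol II antibody as one for a phosphorylated form of the enzyme. The Sox6 libraries held 2985437 and 1468604 reads, the Pol II libraries 1538757 and 2762155, and the input libraries 21973495 and 24249850. Each group is 2 libraries of cultured cells of 1 passage, so p-values measure only the spread between these libraries. In the limma fits against input this spread is shared over all genes and is not that of 1 gene alone. Crosslinked DNA shows where a protein lay and not how much mRNA was made. The label myotubes was checked against marker genes. Pol II exceeded input over the bodies of 9 of 9 annotated myotube markers, with a summed level of 385 and 397 RPKM (reads per kb of gene, scaled to library size) against 7.80 and 8.16 in input, where 38.2% of all bodies were higher and 26% lower. Of fibroblast markers 0 of 8 were higher and 6 lower (summed Pol II 2.44 and 2.28 RPKM, input 4.11 and 3.86), of endothelial markers 0 of 5 were higher and 5 lower, of neuronal markers 2 of 6 higher (Tubb3 and Eno2) and 3 lower, and of leukocyte markers 1 of 5 tested higher (Csf1r) and 1 lower. Lum, a fibroblast proteoglycan gene, had 0 Pol II reads over its body in Pol II ChIP 1 and 0.270 RPKM in Pol II ChIP 2.

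MEF2 proteins are MADS-box factors that bind an A/T-rich element in the control regions of many muscle genes, often beside E-boxes bound by the myogenic bHLH factors MyoD and myogenin. Class IIa histone deacetylases hold MEF2 inactive on its targets, and calcium and p38 or ERK5 kinase signals release or activate it. In limb muscle Mef2c serves sarcomere integrity and the slow, oxidative program, Mef2a takes part in regeneration, and Mef2d is spliced during differentiation into a form that activates late muscle genes.

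The 3 genes differ in size and base composition. Mef2a (ENSMUSG00000030557.9) lies on the minus strand at chr7:74376049-74517744 and is 141696 bp long, with a body of 37.7% GC. Mef2c (ENSMUSG00000005583.8) lies on the plus strand at chr13:83643033-83806684, is the longest at 163652 bp and has 37.5% GC. Mef2d (ENSMUSG00000001419.10) lies on the plus strand at chr3:87946294-87976008, is only 29715 bp long and has 52.3% GC. By GC of the body, Mef2a and Mef2c fell in the 1st decile of all genes and Mef2d in the 9th.

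No common Sox6 peak, that is, a peak called in both Sox6 experiments, lay in or within 20 kb of Mef2a, Mef2c or Mef2d. Replicate 1 alone gave 1 peak in Mef2a and 2 in Mef2c, all intronic, and none at Mef2d, and replicate 2 gave none at any of the genes. The sequence around the center of each of these peaks is shown on the plus strand of NCBI Build 37. They are shown because they are the only called Sox6 sites in or within 20 kb of Mef2a, Mef2c or Mef2d. Capitals mark matches, on either strand, to the Sox motifs ACAAAG and ACAATG, the E-boxes CAGCTG and CAGGTG, the Runx motif CCACA, the Tead motif MCAT (GGAATG) or the MEF2 consensus element.
Mef2a intron 2, chr7:74465331-74465531: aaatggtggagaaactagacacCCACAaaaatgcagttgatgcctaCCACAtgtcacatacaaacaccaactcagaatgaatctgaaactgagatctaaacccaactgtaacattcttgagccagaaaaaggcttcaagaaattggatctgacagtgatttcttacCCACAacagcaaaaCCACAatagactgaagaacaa
Mef2c intron 1, chr13:83654241-83654441: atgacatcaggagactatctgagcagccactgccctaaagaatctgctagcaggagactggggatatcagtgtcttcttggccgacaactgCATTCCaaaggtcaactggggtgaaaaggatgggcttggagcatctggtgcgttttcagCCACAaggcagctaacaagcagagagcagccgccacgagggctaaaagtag
Mef2c intron 2, chr13:83699261-83699461: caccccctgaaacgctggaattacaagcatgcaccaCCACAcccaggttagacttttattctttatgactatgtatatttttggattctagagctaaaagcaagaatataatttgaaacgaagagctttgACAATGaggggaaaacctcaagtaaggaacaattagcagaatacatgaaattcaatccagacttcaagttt

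The Mef2a peak held 4 matches to CCACA, found in 68.6% of the 2888 replicate 1 peaks at this length, and no match to another motif. The intron 1 peak of Mef2c held CCACA once and GGAATG once, on the minus strand, and 25% of peaks hold the latter. The intron 2 peak of Mef2c was the only one with a Sox motif, ACAATG at 30 bp from the center, which 27.5% of peaks hold, and it held CCACA once. Neither E-box that was searched, found in 47.6% (CAGCTG) and 23.7% (CAGGTG) of peaks, was in any of them. The MEF2 element, found in 5.71% of peaks, was also in none. Other E-box sequences were not searched. No match overlapped another. A match is a description of the letters and not evidence of binding.

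The first start sites are shown next, as the 250 bases before the start in the sequence of RefSeq (GRCm38.p6), which was found letter for letter in NCBI Build 37 for all 5 RefSeq starts of the family. Each is written along the direction of transcription, and capitals mark the same motifs and the TATA sequence TATAAA.
Mef2a, first start, chr7:74517745-74517994, minus strand: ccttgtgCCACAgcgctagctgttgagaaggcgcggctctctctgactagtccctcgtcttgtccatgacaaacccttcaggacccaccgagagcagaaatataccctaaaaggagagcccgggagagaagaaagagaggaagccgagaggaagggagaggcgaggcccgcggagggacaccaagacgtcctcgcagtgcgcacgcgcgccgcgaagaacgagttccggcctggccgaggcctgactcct
Mef2c, first start, chr13:83642783-83643032: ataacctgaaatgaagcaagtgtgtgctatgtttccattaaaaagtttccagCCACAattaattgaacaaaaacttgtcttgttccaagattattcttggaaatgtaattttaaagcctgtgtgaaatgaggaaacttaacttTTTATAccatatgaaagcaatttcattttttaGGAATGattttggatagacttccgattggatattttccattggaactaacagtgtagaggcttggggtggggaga
Mef2c, start within the gene, chr13:83712515-83712764: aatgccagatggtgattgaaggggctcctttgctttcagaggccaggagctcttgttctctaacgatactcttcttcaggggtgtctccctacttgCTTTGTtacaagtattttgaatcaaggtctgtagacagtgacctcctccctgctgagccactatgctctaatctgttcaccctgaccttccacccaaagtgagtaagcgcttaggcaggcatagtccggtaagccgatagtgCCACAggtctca
Mef2d, first start, chr3:87946044-87946293: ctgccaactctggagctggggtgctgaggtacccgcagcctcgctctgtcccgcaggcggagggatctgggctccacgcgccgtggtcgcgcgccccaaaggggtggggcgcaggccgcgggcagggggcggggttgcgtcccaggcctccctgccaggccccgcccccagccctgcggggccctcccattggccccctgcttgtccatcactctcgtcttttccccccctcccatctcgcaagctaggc

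The promoters differed in base composition. The Mef2d window was 73.2% GC and held no match to any motif, and the Mef2a window was 61.6% GC and held CCACA once. The first Mef2c window was 33.6% GC and held the Runx motif, the MCAT motif and the TATA sequence once each. The TATA sequence lay at -107 bp, on the strand opposite to transcription. Of all 32851 RefSeq promoter windows of this length, 49.3% hold the Runx motif, 12.6% the MCAT motif and 12.4% the TATA sequence. A Mef2c window not shown, at the RefSeq start 19622 bp into the gene, held the Runx motif and the TATA sequence. The latter was at -22 bp from that start, also on the strand opposite to transcription. The Mef2c window within the gene, 69732 bp after the first start, held the Sox motif ACAAAG, found in 16.5% of windows, and the Runx motif. The MEF2 element, in 2.92% of windows, was in none of the 5 windows of the 3 genes.

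Pol II exceeded input over the bodies of all 3 genes. Over the body of Mef2d the density was 8.10 RPKM in Pol II ChIP 1 and 8.71 in Pol II ChIP 2, against 0.573 and 0.716 in the inputs. Over Mef2c it was 5.97 and 5.85 RPKM, against 0.871 and 0.754. Over Mef2a it was 3.30 and 3.79 RPKM, against 0.692 and 0.640. The order of the levels per length was thus Mef2d, Mef2c and Mef2a, with means of 8.4 ± 0.435, 5.91 ± 0.0856 and 3.54 ± 0.346 RPKM (SD, n = 2). In this order the libraries of neighboring genes did not overlap, and the input levels of the genes kept to a narrow range. For scale, the median gene had 0.483 and 0.478 RPKM of Pol II, the 90th percentile was 2.34 and 2.37 RPKM, and Actb, the housekeeping gene that served as a reference in the study, had 22.6 and 32.1 RPKM.

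Both Pol II libraries were above both inputs over all 3 bodies, which was so for 43.3% of the 19694 bodies tested. Against input, Pol II was higher over Mef2d by 3.71 ± 0.12 on the log2 scale (SE; adjusted p = 4.8e-08, limma), over Mef2c by 2.87 ± 0.08 (adjusted p = 2.6e-08) and over Mef2a by 2.41 ± 0.09 (adjusted p = 9.1e-08). All 3 passed a threshold of 0.05 after Benjamini-Hochberg adjustment over all genes, as did 38.2% of the bodies in this direction. Among all bodies the ratio of Mef2d stood at the 99.0th percentile, that of Mef2c at the 96.2nd and that of Mef2a at the 93.6th, and these ranks do not depend on how the libraries are scaled. Scaling by 10 kb bins of the genome in place of the library totals added 0.84 to every log2 ratio of Pol II and turned the split of all bodies from 7522 higher and 5116 lower to 10737 and 1448.

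**Figure D1:**
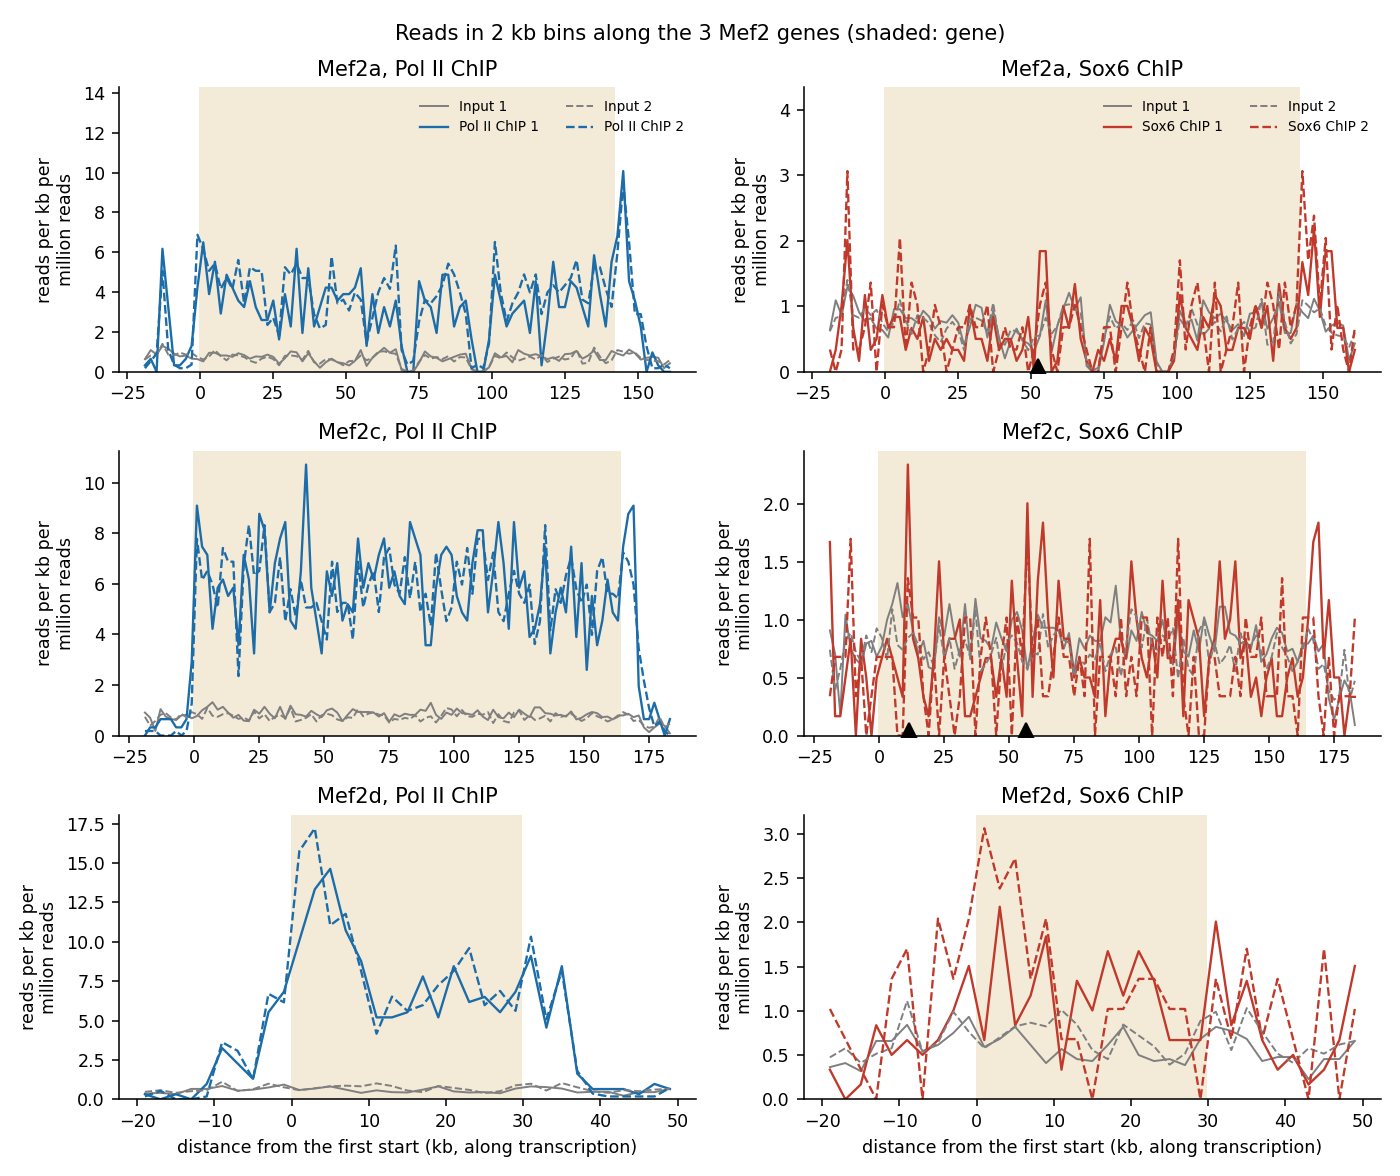
Reads of each library in 2 kb bins along Mef2a, Mef2c and Mef2d, in RPKM, against the distance from the first start in kb, with Pol II on the left, Sox6 on the right, inputs in gray and the gene shaded. Pol II stood above input in 81 of 81 full bins of Mef2c, and the triangles mark the 3 Sox6 peaks of replicate 1.

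The course of Pol II along the genes differed between members. In Mef2c, Pol II was level: between its RefSeq starts the 3 stretches had 5.93 and 5.99, 6.14 and 5.64, and 5.87 and 5.91 RPKM in the Pol II libraries. All 81 bins of 2 kb exceeded the highest input bin of the same number in both libraries, with medians of 5.85 and 5.79 RPKM. Upstream of the first start, from 5 kb to 500 bp before it, Mef2c had only 4 and 5 reads, 0.578 and 0.402 RPKM against 0.698 and 0.751 in input. Pol II thus began in the bins next to the first start, with 2.92 and 1.27 RPKM in the 2 kb before it and 9.10 and 7.78 in the 2 kb after it. It ran past the annotated end with 8.06 and 7.02 RPKM over 5 kb, and in the bin from 170 kb it was 1.95 and 3.44 RPKM.

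Mef2d instead carried its highest density just after the start. The bin from 2 kb had 13.3 and 17.2 RPKM and the bin from 4 kb had 14.6 and 11, against medians over the gene of 7.15 and 7.69. The stretch before the internal start at 20588 bp had 8.79 and 9.43 RPKM, and that after it 6.40 and 7.26. As a ratio to the input of the same number these were 14.3 and 12.3, then 12.9 and 12.7. Mef2d also had Pol II before its first start, at 5.34 and 5.15 RPKM from 5 kb to 500 bp upstream against 0.829 and 0.898 in input, and 3.25 and 3.62 in the bin from 10 kb upstream. The same stretch before Mef2a had 1.88 and 1.77 RPKM against 0.779 and 0.935 in input, and the bin from 14 kb upstream of Mef2a had 6.17 and 5.07 RPKM of Pol II, with 12 and 9 reads of Sox6. No other of the 23030 genes starts within 20 kb before Mef2d. Genes that only end there, and annotated genes outside the 23030, were not sought. The 5 kb past the end had 6.11 and 7.39 RPKM, where the antisense lincRNA gene 1700113A16Rik overlaps the end of Mef2d by 527 bp. That gene had 6.36 and 6.89 RPKM over its body and 16 and 27 Pol II reads at its start. The reads are not assigned to a strand of transcription, so Pol II of the overlapping genes cannot be told apart.

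In Mef2a the stretches differed. Pol II was 3.84 and 4.18 RPKM in the first stretch, 1.86 and 2.68 between the internal starts at 55938 and 75426 bp, and 3.18 and 3.75 after that. As a ratio to the input of the same number these were 5.49 and 6.24, then 3.28 and 4.74, then 4.46 and 5.98. In the bins from 70, 72, 94 and 96 kb, where Pol II ChIP 1 held 0 reads, the inputs held 0 to 3. Pol II exceeded the highest input bin in 65 and 64 of 70 bins. Past the end it was 10.1 and 9.41 RPKM in the bin from 144 kb, which overlaps the end of Lysmd4, a gene transcribed toward Mef2a whose body had 5.71 and 6.30 RPKM.

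At the start sites, counted within 500 bp on each side, Pol II exceeded input at all 3 genes as well. Mef2c had 18 and 19 reads of Pol II against 17 and 28 of input, the input libraries being far deeper. Mef2a had 7 and 19 reads of Pol II against 1 and 9 of input, and Mef2d had 7 and 18 against 8 and 3. Scaled to library size (RPM), both Pol II libraries were above both inputs at each start, as at 43.3% of the 23030 starts. The log2 ratios were 5.16 ± 0.64 for Mef2a, 4.60 ± 0.59 for Mef2d and 3.25 ± 0.34 for Mef2c (SE; limma, adjusted p = 1.1e-14, 9.0e-14 and 1.0e-19). All 3 were called, beside 45.1% of all starts, and the median log2 ratio of all starts was 1.44. With few input reads the fitted ratio depends on the 0.5 reads added, so the summed reads are given too, with an exact 95% interval for counting error. Pol II over input, scaled to library size, was 27.9 (13.0 to 64.9) for Mef2a, 24.4 (11.6 to 55.0) for Mef2d and 8.84 (5.56 to 14.0) for Mef2c, so that the intervals of Mef2a and Mef2d overlapped and that of Mef2c met Mef2a and Mef2d only at its upper end. Pol II alone was 4.55 and 6.88 RPM at Mef2a, 4.55 and 6.52 at Mef2d and 11.7 and 6.88 at Mef2c. In the same order, input was 0.0455 and 0.371, 0.364 and 0.124, and 0.774 and 1.15 RPM. The lower ratio of Mef2c thus went with a higher input, and its Pol II level was not below that of Mef2a or Mef2d in either library.

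Without regard to input, the density of Pol II at the start relative to the body was lowest for Mef2d. It was lower at the start than over the body in both libraries, at 0.561 and 0.747 of the body density. For Mef2a it was 1.38 and 1.81 times and for Mef2c 1.96 and 1.17 times the body density. The libraries of Mef2a and Mef2c overlapped in this ratio and those of Mef2d lay below both. Input was also less dense at the start of Mef2d than over its body, at 0.634 and 0.173 of the body density. At Mef2a this share of input was 0.0657 and 0.580, and at Mef2c 0.888 and 1.53. Against input the log2 ratio of Mef2d was higher at the start (4.60) than over the body (3.71), a difference that was not tested. With 0.2 RPM added these ratios were 3.72 and 3.70. The start values of Mef2d rest on only 7 and 18 reads of Pol II and 8 and 3 of input. Of 12 distinct GENCODE start sites of the 3 genes, including ones that lie under 500 bp apart and share reads, all were called for Pol II, with log2 ratios from 2.36 to 5.16, beside 46.4% of the 71834 annotated starts. The starts inside the genes lie within bodies that Pol II covers, with log2 ratios near those of the bodies (2.36 and 2.60 in Mef2a, 3.25 in Mef2c, 3.62 and 4.0 in Mef2d), so their calls say nothing of the starts themselves. The Mef2c start at 69732 bp, which is only in RefSeq and was not tested, had 11 and 18 Pol II reads against 17 and 28 in input.

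**Figure D2:**
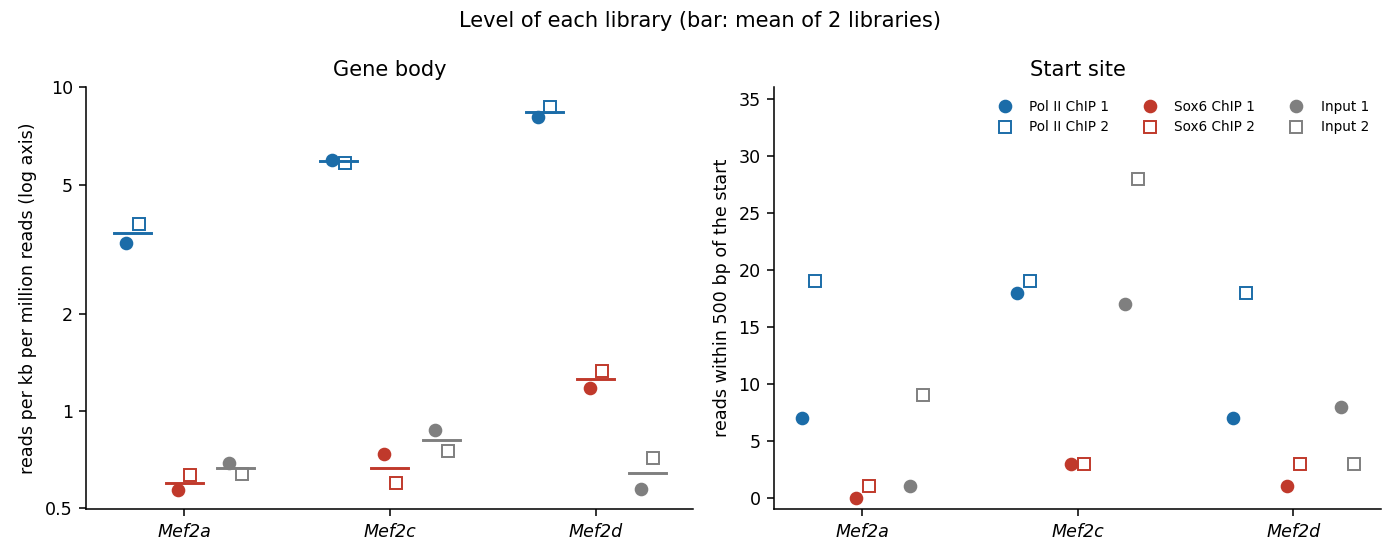
Level of each of the 6 libraries for Mef2a, Mef2c and Mef2d, with RPKM over the gene body on a log axis at the left (bar: mean of 2 libraries) and reads within 500 bp of the start at the right. Pol II separates from input in every body, from 3.30 RPKM in Mef2a to 8.71 in Mef2d, and Sox6 lies above both inputs only over Mef2d.

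By the number of called peaks, the longest gene came first. Mef2c held 63 and 101 Pol II peaks in the lists of replicates 1 and 2, rank 9 of all genes in both, Mef2a held 12 and 38, and Mef2d 14 and 17. Per 10 kb of gene these were 3.85 and 6.17 in Mef2c, 0.847 and 2.68 in Mef2a, and 4.71 and 5.72 in Mef2d. The median peak was only 101 and 241 bp wide in Mef2c, and all its peaks together covered 7.60% and 21.4% of the gene. Mef2d held peaks over 22.5% and 38.4% of its length, among them 1 of 4521 bp in replicate 1 and 1 of 6621 bp in replicate 2, wider than 99.4% and 99.6% of the Pol II peaks of the list. These wide peaks began 1337 and 597 bp after the start. Among the Pol II peaks that overlap each gene, 1 lay within 500 bp of the start of Mef2c in both lists. For Mef2a and Mef2d none did, and the nearest began 773 and 933 bp and 777 and 597 bp away. Peaks lying wholly before the start were not sought at these genes. Over all genes, by a wider search on both sides of the start, 7.76% and 11.9% had a peak within 500 bp.

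Reads inside Pol II peaks were also divided by the length of the gene, a measure rebuilt from the study's methods. For Actb it was 27.4 RPKM in Pol II ChIP 1 and 33.2 RPKM in Pol II ChIP 2. The study reports a much lower level for Actb, so the rebuilt measure is not on its scale. By this measure the levels of Mef2a, Mef2c and Mef2d were lower than over the body, and their order was kept. Mef2d had 2.78 and 4.86 RPKM in peaks, Mef2c 0.818 and 1.79 and Mef2a 0.197 and 0.409. These were 10.1% and 14.6%, 2.99% and 5.39%, and 0.72% and 1.23% of the Actb value by the same measure. Over the body, with all reads, Mef2d had 35.9% and 27.2% of the Actb density, Mef2c 26.5% and 18.3%, and Mef2a 14.6% and 11.8%. Counting all reads between the ends gave 8.0 and 8.66 RPKM for Mef2d, 6.00 and 5.87 for Mef2c and 3.29 and 3.78 for Mef2a. The reads outside called peaks therefore made up most of the Pol II reads of Mef2a and Mef2c. As a fold difference, the gap between replicates was smaller with all reads than with reads in peaks at each of the 3 genes.

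Sox6 reads were sparse at the start sites. Mef2a had 0 and 1 Sox6 reads, Mef2c 3 and 3, and Mef2d 1 and 3, against the input reads given above. A count of 0 in Sox6 ChIP 1 allows up to 3 reads, or 1.0 RPM, counting error only. Summed over libraries, Sox6 over input was 1.04 (exact 95% interval 0.0239 to 7.29) for Mef2a, 1.38 (0.482 to 3.25) for Mef2c and 3.77 (0.876 to 12.7) for Mef2d, each interval holding 1. None of the 3 passed the test (limma log2 ratios 1.34 ± 1.07, 0.79 ± 0.56 and 2.21 ± 0.93, SE, adjusted p = 0.52, 0.44 and 0.14), as against 6.4% of all starts called. The median log2 ratio of all starts was 0.82, slightly above that of Mef2c. With 2 reads added all 3 were called (adjusted p = 0.0074, 0.029 and 0.00097), and without Sox6 ChIP 1 they were too (adjusted p = 0.023, 0.014 and 2.7e-06), but so were 16484 and 10093 of all 23030 starts. Of the starts within genes, the Mef2c start at 69732 bp had the most Sox6 reads in 1 library, 8 in Sox6 ChIP 1, but 1 in Sox6 ChIP 2.

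Over the gene bodies, Sox6 exceeded input only at Mef2d. Its density was 1.18 and 1.33 RPKM in the Sox6 libraries against 0.573 and 0.716 in the inputs, from 103 and 57 reads. Both Sox6 libraries lay above both inputs, as for 36.6% of bodies. The log2 ratio was 0.98 ± 0.16 (SE; limma, adjusted p = 0.019), beside 5.12% of bodies called higher. The call was lost without Input 1 (log2 ratio 0.82, adjusted p = 0.097) and where 0.2 RPM was added in place of reads (0.96, adjusted p = 0.13), and it held in 10 of 12 alternatives. The bin with most Sox6 reads was that from 2 kb in Sox6 ChIP 1 (13 reads, 2.18 RPKM), followed by that from 8 kb (11 reads). The bin from 2 kb held 7 reads (2.38 RPKM) in Sox6 ChIP 2, where the bin from 0 kb was highest (9 reads, 3.06 RPKM), and that bin held 4 reads in Sox6 ChIP 1.

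Mef2a and Mef2c did not exceed input. Mef2a had 0.569 and 0.632 RPKM of Sox6 against 0.692 and 0.640, and Mef2c had 0.737 and 0.597 against 0.871 and 0.754. The log2 ratios were -0.15 ± 0.10 for Mef2a and -0.29 ± 0.12 for Mef2c (SE; limma, adjusted p = 0.36 and 0.16), beside 1.65% of bodies called lower. Mef2c was called lower with the replicate number as a block (-0.29, adjusted p = 0.0071) and without Sox6 ChIP 1 (-0.44, adjusted p = 0.00053), settings in which 1176 and 3011 of all 19694 bodies were called lower. Scaling by 10 kb bins added 0.15 to every Sox6 ratio and brought Mef2a to 0.00.

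These Sox6 ratios moved with the GC content of the genes. In the 1st decile of bodies by GC, with Mef2a and Mef2c, the median log2 ratio of Sox6 was -0.39, with 0.0508% of bodies called higher and 14.2% lower. In the 9th decile, with Mef2d, the median was 0.56 and 13.6% were called higher. Within its decile, Mef2d stood at the 89.2nd percentile, Mef2a at the 74.2nd and Mef2c at the 63.1st. Pol II ratios moved with GC as well, from a median of -0.75 in the 1st decile to 0.67 in the 9th and 1.14 in the 10th. The part of base composition in the differences between the genes, in Sox6 or Pol II, was not tested.

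**Figure D3:**
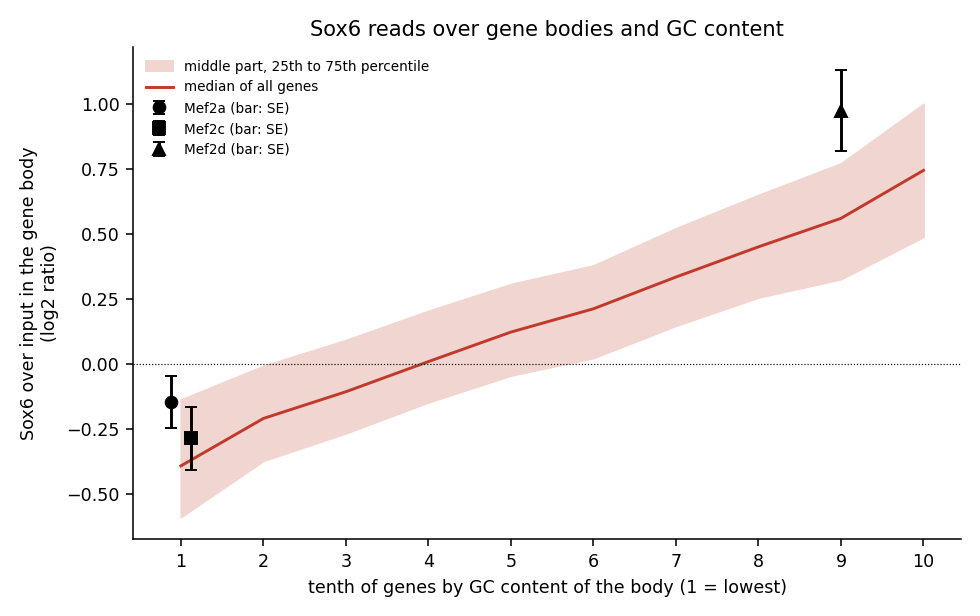
Sox6 over input in the gene body (log2 ratio) by deciles of all 19694 bodies ordered by GC content, with the median as a line, the 25th to 75th percentile shaded, and the 3 Mef2 genes as points with their SE. The median rises from -0.39 in the 1st decile to 0.75 in the 10th, and Mef2d lies above the shaded range of its decile.

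The replicate 1 peaks were then read in replicate 2, whose reads had not selected them. At the Mef2c intron 2 peak (chr13:83699272-83699451, 56328 bp after the first start), the 450 bp around the center held 8 and 5 reads of Sox6 against 9 and 13 of input. In replicate 2 this was 6.35 times input (exact 95% interval 1.77 to 19), which passed an exact binomial test (two-sided, adjusted p = 0.0054) as did 67% of replicate 1 peaks, and 54.9% of the 2008 that, like this one, share no base with a replicate 2 peak. At the Mef2c intron 1 peak (chr13:83654312-83654371, 11308 bp after the start) there were 11 and 3 Sox6 reads against 9 and 14, or 3.54 times input in replicate 2 (0.652 to 12.7, exact binomial adjusted p = 0.093). With reads moved 75 bp toward the middle of the fragment this peak passed too (5.08 times, exact adjusted p = 0.022). At the Mef2a intron 2 peak (chr7:74465412-74465451, 52313 bp after the start) 10 and 2 Sox6 reads stood against 14 and 11, or 3.0 times input (0.323 to 13.8, exact binomial adjusted p = 0.20). These tests set 1 Sox6 library against 1 input library, and their p-values and intervals cover counting error only. On these terms 1 of the 3 peaks was also above input in the library that did not call it, and the intervals of the other two hold both 1 and the value of the first. Pol II reads in these windows numbered 5 and 15, 6 and 14, and 5 and 7 in the order given.

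The absence of common peaks is read against the share of genes that have one. By the same rule, 4.32% of all genes held a common peak in or within 20 kb, and 14.5%, 15.1% and 7.76% of genes at least as long as Mef2a, Mef2c and Mef2d. A gene of this kind without a common peak is thus the usual case. A replicate 1 peak lay at 9.67% of all genes, and at 29.9% and 30.9% of those at least as long as Mef2a and Mef2c. Widening the distance to 50 kb added 1 replicate 1 peak at Mef2c and no common peak. The nearest common peaks were far off. For Mef2c they lay 392212 and 428372 bp upstream, between genes, where Mef2c was the nearest gene, and the closer one had 22 and 11 reads of Sox6 against 11 and 18 of input. It was higher than input (limma), like 96.7% of the common peaks, which were called on these reads. For Mef2a the nearest was 418288 bp past the end in Lass3, and for Mef2d 458054 bp past the end in Arhgef2.

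The genes that work with MEF2 are given next from lists of names, each by its Pol II over the gene body. Over all bodies 38.2% were called higher and 26% lower, and the median log2 ratio was 0.14. Of the MADS-box kin, Srf, the serum response factor, was higher at 2.45, and Mef2b stood at -0.14 ± 0.33 (SE, adjusted p = 0.73) with 0.412 and 0.255 RPKM against 0.391 and 0.360 in input. Pol II over Mef2b was thus not called, with ChIP 1 above both inputs and ChIP 2 below them. Of the bHLH partners 6 of 6 were higher with a median of 2.05, from Tcf12, an E protein, at 0.93 to Myog, the gene of myogenin, at 6.35. Of 15 MEF2 targets in muscle all 15 were higher with a median of 3.36, from Nr4a1, an immediate early nuclear receptor, at 1.33 to Des, the gene of desmin, at 4.95.

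Co-regulators and kinases were more mixed. Of 7 repressors 5 were higher and 1 lower, the latter being Hdac9, a class IIa deacetylase, at -1.13. Of 8 coactivators 6 were higher and 1 lower, from Vgll4, a Tead cofactor, at 1.94 to Ppargc1a, the gene of PGC-1α, at -0.46. Of 10 upstream kinases and phosphatase subunits 7 were higher and 3 lower, from Mapk7, the gene of ERK5, at 1.92 to Camk4, a calcium/calmodulin kinase, at -1.47. Mef2a, Mef2c and Mef2d, at 2.41 to 3.71, lay above all members of the last 2 lists.

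**Figure D4:**
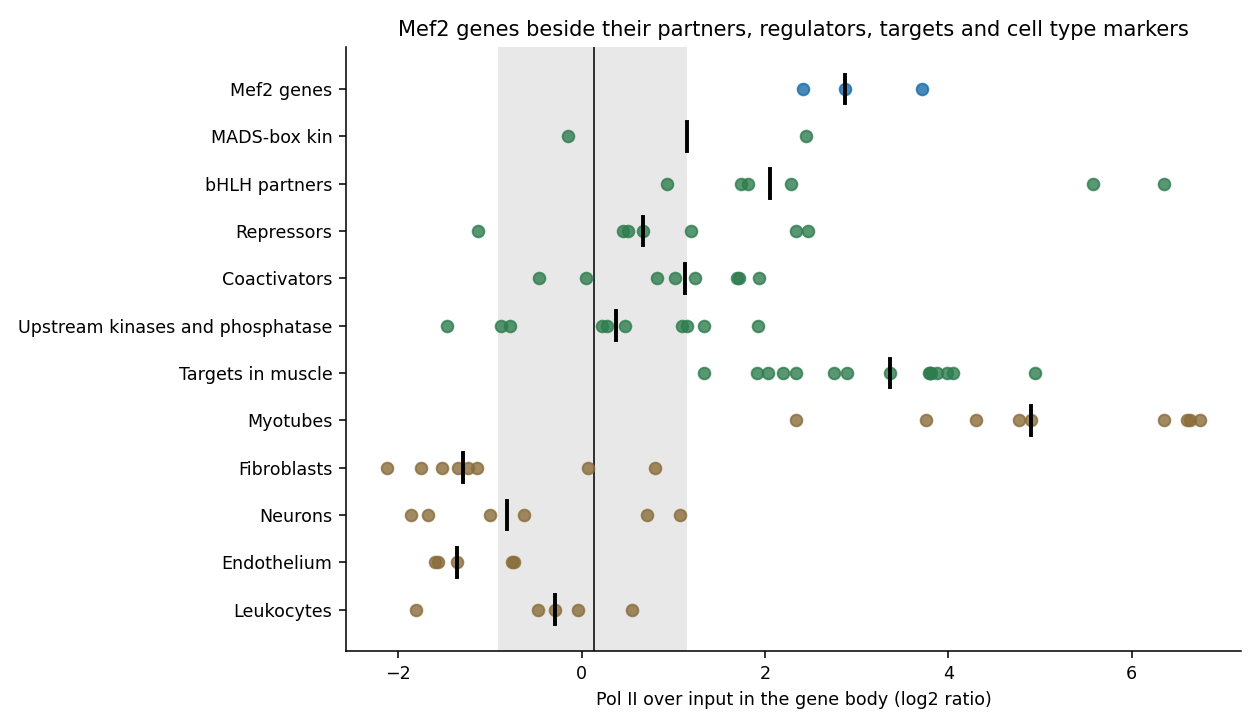
Pol II over input in the gene body (log2 ratio) of each gene in the lists of Mef2 partners, regulators, targets and cell type markers, with the median of each list as a bar, the median of all 19694 bodies as a line and their 25th to 75th percentile in gray. The 3 Mef2 genes lie to the right of the gray range, between 2.41 and 3.71, and all 15 targets and 9 myotube markers also lie to its right.

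Sox6 at these genes is given by counts, and the lists were not compared by a test. A common Sox6 peak in or within 20 kb was found for Tcf4 and Tcf12 of the bHLH partners, Carm1 and Vgll4 of the coactivators, Map2k5 of the kinases and Mb, Actn2 and Cryab of the targets, and for none of the MADS-box kin, beside 4.32% of all genes. Of the repressors none had one by the longest model of the gene, but with all transcripts counted Hdac9 had 1 (chr12:35213862-35213941), 108 bp from the start of a shorter transcript. Counted so, 4.36% of all genes had a common peak and Mef2a, Mef2c and Mef2d still 0. Over the bodies, Sox6 was called higher in 5 of 7 repressors, 4 of 15 targets, 2 of 8 coactivators, 1 of 6 bHLH partners, 1 of 2 MADS-box kin (Srf) and 0 of 10 kinases and phosphatases, beside 5.12% of all bodies and between 0.0508% and 13.6% of them by GC decile. Sox6 was called lower in 1 gene, the phosphatase subunit gene Ppp3cb (-0.71, limma adjusted p = 0.031). With 0.2 RPM added none of these calls, higher or lower, was left.

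The genes nearest to each member in overall pattern were sought, which always exist and need not be alike in each measure. Over 8 log2 ratios (Pol II and Sox6, body and start, each of 2 replicates) and 18823 genes with enough input reads, the nearest to Mef2c were Tmem126a (Euclidean distance 0.817), the ribosomal protein gene Rps25 (0.849) and Snhg4 (1.07). The nearest to Mef2a were Dusp11 (1.21), Sync, the gene of the muscle filament protein syncoilin (1.33) and C030044B11Rik (1.33), and to Mef2d E530011L22Rik (1.02), the tetraspanin gene Cd81 (1.58) and Cacnb1, a muscle calcium channel subunit (1.73). Between the Mef2 genes the distance was 2.96 for Mef2a and Mef2c, and 4.71 and 4.76 from these to Mef2d. The nearest genes are closer than these by the way they were picked. By rank among the 18823 genes, Mef2c and Mef2d were 449 and 3585 from Mef2a. From Mef2c, Mef2a and Mef2d ranked 1730 and 7279, and from Mef2d, Mef2a and Mef2c ranked 1010 and 1063. The ratios at start sites in this measure rest on few reads. Of the genes close by, Lysmd4 was higher than input for Pol II over its body (log2 ratio 2.64 ± 0.17, SE, limma adjusted p = 2.6e-06), as was 1700113A16Rik (3.12 ± 0.18, adjusted p = 1.0e-06), while the lincRNA gene 1700112J16Rik was not (-0.49 ± 0.23, adjusted p = 0.091). At the start of 1700112J16Rik, 7 and 4 reads of Sox6 stood against 11 and 16 of input, which passed the test (2.22 ± 0.56, limma adjusted p = 0.0039) but, like every other start, not with 0.2 RPM added. The start of Lysmd4, whose window shares most of its bases with that one, had 5 and 0 reads of Sox6 against 13 and 17 and did not pass (0.25 ± 0.79, adjusted p = 0.91).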

How the data were processed

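6 libraries were analysed. Per the labels and the study's methods, reads were aligned by the authors with Bowtie (version 0.12.5) to NCBI Build 37, and peaks were called with SISSRs against input. The deposited read files list aligned reads, whose score column is constant and holds no measurement. The deposited Sox6 peak lists have a score of 0 throughout, and the deposited Pol II lists give a column without a name, taken from its values to be a ratio to input, which was not used. Reads were placed by their 5′ end and counted here. Reads of Input 1 were 36 bases long and the others 39.

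Gene models were GENCODE vM1 genes on NCBI Build 37 that matched a RefSeq symbol (20480) or synonym (2550) of GRCm38.p6, which was used for names, RefSeq starts and promoter sequences. The longest model was used. Bodies ran from 501 bp after the start to the end for the 19694 genes of at least 2 kb. Log2 of reads plus 0.5, as RPM, was fitted with limma (version 3.58.1, R 4.3.3, trend), 2 ChIP against 2 input libraries, with Benjamini-Hochberg adjustment over all features. Where input reads are few, adding 0.5 reads raises the ratio of the shallower ChIP library, which was seen on simulated data and led to the alternative with 0.2 RPM, chosen after the data were seen. Single-replicate peaks used exact binomial tests, scipy 1.17.1. The genes named are the 3 members, Actb, neighbors within 20 kb, the 3 nearest patterns of each member, and the extremes of each list, of which 1 is not reported here. Members and lists were chosen with earlier results of these data known. Tubb3, Eno2 and other list genes named beside a count of 5 or fewer were chosen after their values were seen. The alternatives were repeated positions once, a replicate block, 2 reads added, a filter of 10 reads, scaling by 10 kb bins, voom weights, other windows and starts, and each library left out. Counting peaks over all transcripts of a gene in place of the longest was added after the data were seen.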

Additional observations from a re-analysis of the deposited data

How the results depend on the processing

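Pol II over bodies and at starts stayed called at all 3 genes in every alternative run, 12 for bodies and 14 for starts, with log2 ratios from 2.31 to 3.25 (bodies) and 3.90 to 6.43 (starts) for Mef2a, 2.76 to 3.71 and 2.87 to 4.09 for Mef2c, and 3.55 to 4.55 and 3.72 to 5.43 for Mef2d. Sox6 at the starts stayed uncalled in 12 of 14 alternatives for each gene.

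Counts over all features moved more. Starts higher in Pol II (10393) were 20027 with 2 reads added and 6671 with 0.2 RPM added, where 4427 were lower in place of 20. Starts higher in Sox6 (1474) were 16484 with 2 reads added, 419 with at least 10 reads, 2234 scaled by 10 kb bins, 443 with voom weights, 4039 and 763 with 250 and 1000 bp on each side, 0 with 0.2 RPM added (limma, 1189 at an unadjusted p under 0.05), and 28 to 10093 with each library left out (10093 without Sox6 ChIP 1, 4082 without Sox6 ChIP 2, 28 without Input 1, 41 without Input 2). Bodies higher in Sox6 (1009, with 325 lower) were 2592 with 2 reads added, 2513 scaled by bins (142 lower), 0 with 0.2 RPM added (limma, 3158 unadjusted), and 180 to 7084 with each library left out (7084 without Sox6 ChIP 1, 4216 without Sox6 ChIP 2, 180 without Input 1, 568 without Input 2). The cause was not tested. Bodies higher in Pol II were 6299 to 8591, starts 7399 to 11571 and common peaks higher in Sox6 (1031 of 1066, 96.7%, called on these reads) 1008 to 1047 with each library left out. Pol II in all reads in place of peaks was 3.29 and 3.78 RPKM (Mef2a), 6.00 and 5.87 (Mef2c), 8.0 and 8.66 (Mef2d).

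The labels do not say that a replicate number is shared by the same experiment in ChIP and input, while the study's methods speak of an input for each experiment, without numbers. Differences of replicate 1 from 2 correlated by 0.22 between Sox6 and input over bodies, by -0.01 between Pol II and input. With the replicate block, 2756 bodies were higher in Sox6 and Mef2c was called lower (-0.29, adjusted p = 0.0071, limma). It changed no other call of the 3 genes.

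With 2 libraries a group and 0 to 19 ChIP reads at a start, small differences were not detectable.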
